A study of Mus musculus with 4 samples.

Results

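The clustered protocadherins are neighbouring genes on mouse chromosome 18 that encode cadherin-family cell-surface proteins. The members taken here were the protein-coding genes of that chromosome whose symbol starts with Pcdha, Pcdhb or Pcdhg in the RefSeq annotation of GRCm38.p6, the assembly also called mm10. There were 57 of them among 20665 autosomal coding genes. The data were a deposited list of interactions from H3K27ac HiChIP, an assay that joins and sequences chromatin fragments lying close together and enriches for those carrying the acetylated histone H3 of active promoters and enhancers. The letters YM in the name of the list were taken to stand for the YAP-M fusion, the genotype that the labels give for a mouse brain tumor. The study has 2 tumor libraries of that genotype and 2 from wild-type neural stem cells grown in culture with EGF and basic FGF, all made with an H3K27ac antibody. The titles of these libraries name H3K27ac ChIP-seq rather than HiChIP, and the list names no library. The labels do not say how the tumor was induced, in which cells the fusion was expressed, or whether animals were pooled.

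Every interaction with a 10 kb anchor bin that overlapped a member, or the 2.5 kb beyond either of its ends, was taken. These were 49 of 99041 listed interactions (0.0495%, exact 95% interval 0.0366 to 0.0654%), and 49 of the 2995 on chromosome 18. The list names no library and holds no read count or score, so depth is unknown, there is no spread between replicates, and tumor could not be set against neural stem cells. Intervals cover counting error only. In bulk tissue, a contact present in few cells and a weak contact present in many cannot be told apart. The list measures no expression, so the tissue could not be checked by marker levels. Of 10 markers of neural progenitor, ependymal, microglial, endothelial and neuronal cells, 9 had an interaction at a gene end, beside 65.7% of all coding genes. Progenitor markers had 27 at Sox2, 26 at Vim and 7 at Nes, the ependymal Foxj1 had 9, the endothelial Kdr and Pecam1 had 13 and 7, the microglial Aif1 and Csf1r had 3 and 2, and the neuronal Rbfox3 and Tubb3 had 1 and 0.

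As background, each neuron is known to express its own combination of clustered protocadherins, which bind the same isoform on other membranes and let a neuron tell its own branches from those of others. In the Pcdha and Pcdhg clusters, each gene starts at its own promoter with its own large variable exon, which is spliced to constant exons shared by the whole cluster, so the genes have different low-coordinate ends and a common high-coordinate end. Pcdhb genes are separate single-exon genes. Promoter choice is known to involve contacts with distant enhancers, held by CTCF and cohesin, and the C-type members at the end of Pcdha and Pcdhg are the more constantly expressed isoforms. The low-coordinate end of a Pcdha or Pcdhg gene is therefore called its start below.

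The listed interactions ran mostly from Pcdhg genes and the upper part of Pcdhb to bins inside Diaph1. This neighbouring gene above Pcdhg encodes a formin that assembles actin filaments. Of the 49 interactions, 41 joined a cluster to a bin outside (83.7%, exact 95% interval 70.3 to 92.7%), and all 41 of these partners lay at higher coordinates. A further 8 lay within a cluster, and 0 joined one cluster to another. A bin inside Diaph1, beyond the Pcdhg end, was the partner in 40 of the 49 (81.6%). The remaining outside partner was a single bin above Pcdha.

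**Figure D1:**
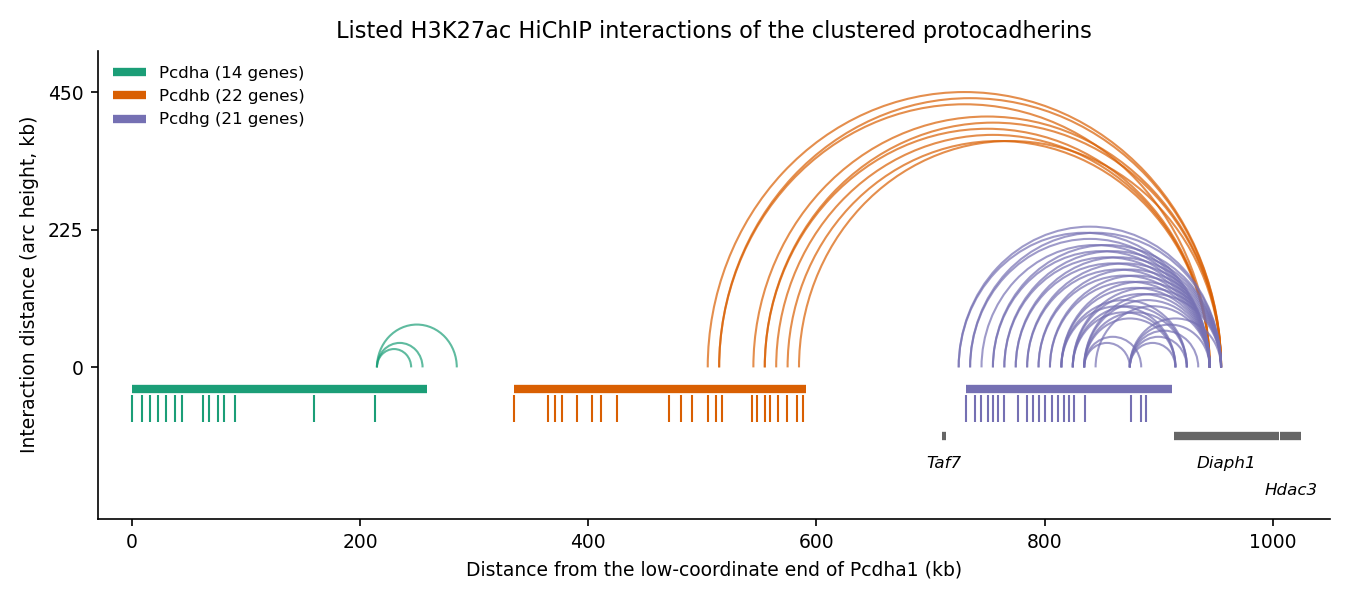
Map of the 49 listed interactions; the x axis is the distance in kb from the low-coordinate end of Pcdha1 and the arc height is the interaction distance in kb. Thick colored bars are the Pcdha, Pcdhb and Pcdhg clusters, ticks are gene starts, and arcs have the color of their cluster; 40 arcs end in bins of Diaph1 beyond the end of Pcdhg, 4 in the bin that holds both the Pcdhg end and the low-coordinate end of Diaph1, 3 start at Pcdhac2 and none joins 2 clusters.

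The 3 clusters differed in how much of them was listed. Pcdhg (21 genes, chr18:37661775-37841873) had 37 interactions, and 16 of its 20 bins were anchors. Pcdhb (22 genes, chr18:37264998-37521419) had 9 interactions on 7 of 22 bins. Pcdha (14 genes, chr18:36930285-37188897) had 3 interactions on 3 of 28 bins. The shares of bins that were anchors were 80.0% (exact 95% interval 56.3 to 94.3%), 31.8% (13.9 to 54.9%) and 10.7% (2.27 to 28.2%) in that order, beside 23.6% of the 238927 bins between the outermost anchors of each autosome. The interval of Pcdhg lay above that value and those of Pcdhb and Pcdha included it. Neighbouring bins are not independent, so these intervals are too narrow, and no test between clusters was run.

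Gene starts gave the same order. At least 1 interaction lay at the start of 21 of 21 Pcdhg genes, at the low-coordinate end of 11 of 22 Pcdhb genes and at the start of 1 of 14 Pcdha genes. Together these were 33 of 57 members (57.9%), close to the 52.3% of all coding genes with an interaction at the low-coordinate end. The median per gene was 3 in Pcdhg, 0.5 in Pcdhb and 0 in Pcdha, against 1 over all coding genes. Over the whole gene with its window, 46 of 57 members had an interaction, beside 67.8% of all coding genes, but the Pcdha and Pcdhg genes overlap one another, so all 14 Pcdha genes were counted there from the same 3 interactions. At either end the count was also 46 of 57, beside 65.7% of all coding genes, because the Pcdha genes share an upper end.

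**Figure D2:**
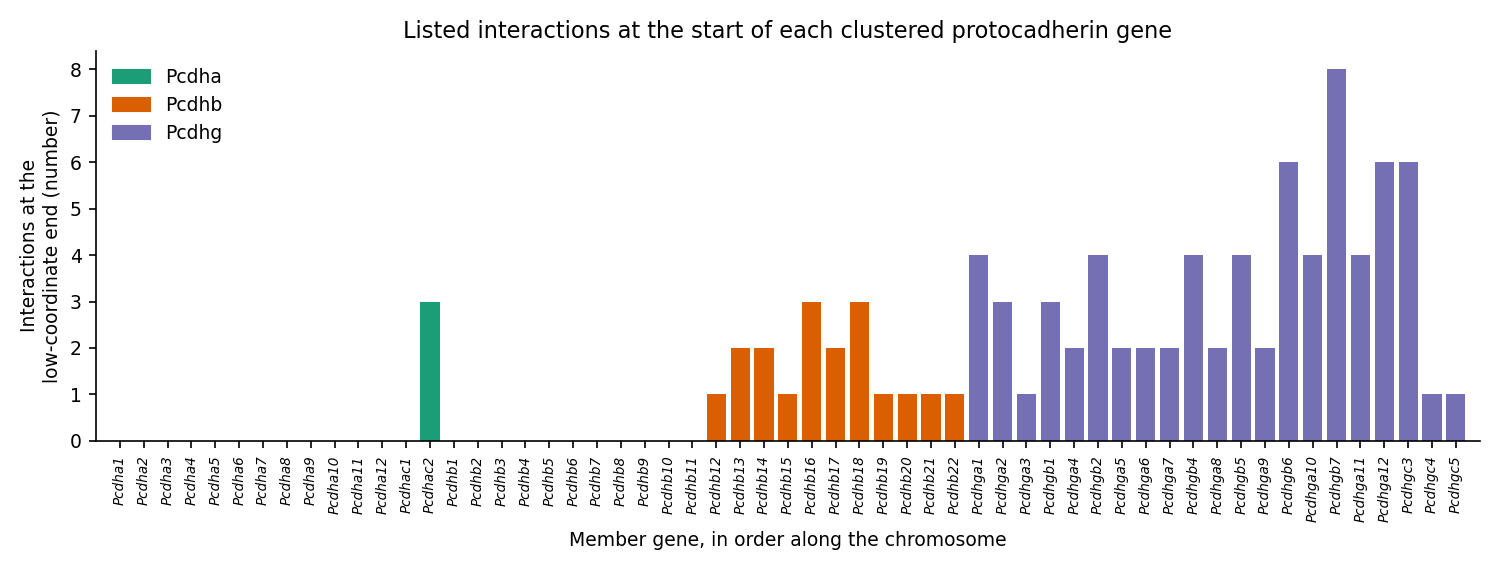
Number of listed interactions with an anchor bin within 2.5 kb of the low-coordinate end of each of the 57 members, in chromosomal order and colored by cluster. Pcdhac2 is the only Pcdha gene above 0, the Pcdhb genes are at 0 up to Pcdhb11 and at 1 to 3 from Pcdhb12 on, and the Pcdhg genes run from 1 to 8.

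Most listed interactions of the members converged on a pair of adjacent bins inside Diaph1, chr18:37870001-37880000 and chr18:37880001-37890000. This pair was singled out after its values were seen. The lower of the pair begins 28.1 kb above the shared end of the Pcdhg genes. Diaph1 is annotated at chr18:37843601-37935622, and neither bin holds an end of any coding gene or another annotated gene. The lower bin had 19 interactions, of which 14 were with Pcdhg bins, 4 with Pcdhb bins and 1 with a bin between the clusters. The upper bin had 18, of which 12 were with Pcdhg, 5 with Pcdhb and 1 with that same bin between the clusters. All 37 interactions of the pair pointed to lower coordinates, and 35 of them made up 71.4% of the interactions of the clusters. Many of these were adjacent calls. With interactions within 1 bin of each other at both anchors merged, each bin of the pair took part in 4 of 8 contacts. The majority thus holds for single calls and not for merged contacts.

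The bin between the clusters was chr18:37640001-37650000, which holds Taf7, a gene of a general transcription factor subunit, and lies close to an end of Slc25a2, a mitochondrial carrier gene. It was 1 of 12 bins between Pcdhb and Pcdhg, and the other bins of that gap were not listed with either Diaph1 bin. The partner sets of the pair overlapped at 15 bins, which was 78.9% of the partners of the lower bin and 83.3% of those of the upper bin. In all, 22 bins were a partner of one or both.

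Across Pcdhg the contacts formed a nearly unbroken row. The lower Diaph1 bin was listed with 14 of the 20 Pcdhg bins (70.0%, exact 95% interval 45.7 to 88.1%), whereas 1.27% of all autosomal bin pairs at the same distances were listed. The upper bin was listed with 12 of 20 (60.0%, 36.1 to 80.9%), against 1.28% at the same distances. The pair was picked as the outside partner bins with the most interactions, so high shares follow in part from that choice. The intervals are therefore descriptive only, and no comparison with other anchors of like number was run for these shares. With the bin of Taf7, the partners of the lower Diaph1 bin included 14 consecutive bins, chr18:37640001-37780000. A run of 14 or more consecutive partners occurred at 209 of 56427 anchors of the list (0.370%). The row held the starts of all 18 Pcdhg genes of the A and B types, from Pcdhga1 to Pcdhga12. Its last bin, chr18:37770001-37780000, holds no member's start and lies in the gap between these genes and the C-type genes. Beyond it, the lower Diaph1 bin was listed with a single further Pcdhg bin, chr18:37800001-37810000, which holds the start of Pcdhgc3.

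**Figure D3:**
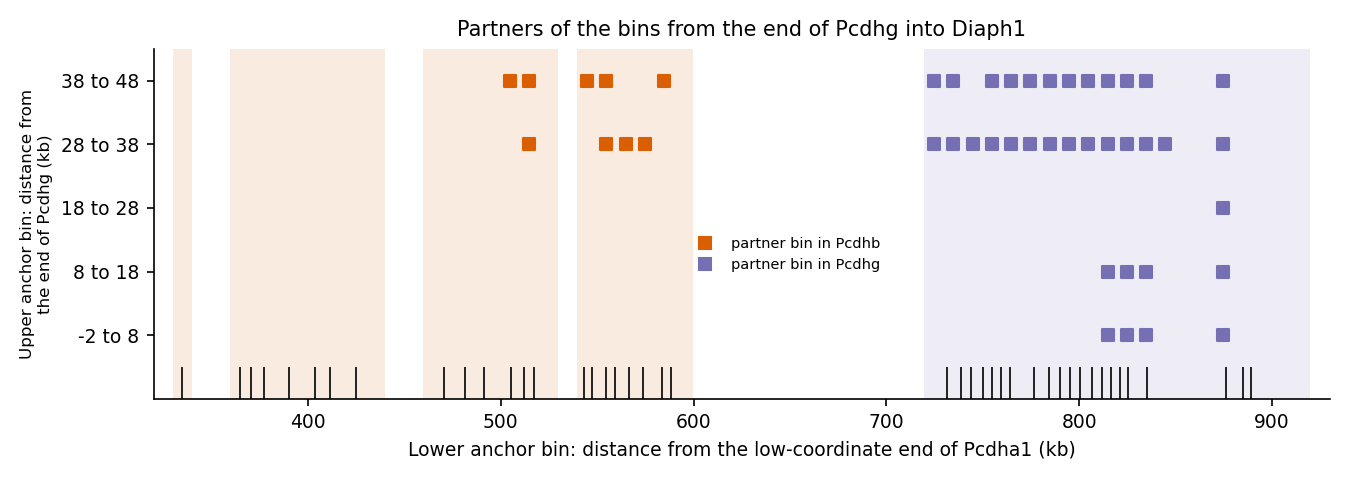
Partners of 5 adjacent bins, from the one at the end of Pcdhg (bottom row) to the upper Diaph1 bin of the pair (top row); the y axis gives each bin's distance from the end of Pcdhg and the x axis the distance of the partner bin from the low-coordinate end of Pcdha1, both in kb. Squares are listed interactions with Pcdhb or Pcdhg bins, shading marks the bins of each cluster and black ticks are gene starts; both upper rows run across Pcdhg and reach Pcdhb, and the other rows hold only Pcdhg partners.

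In Pcdhg, partner bins mostly held gene starts, as did most bins of the cluster. Of the 15 Pcdhg bins with a member's start, 13 were listed with at least 1 bin of the Diaph1 pair, against 1 of the 5 Pcdhg bins with no start. The bins with no start all lay from chr18:37770001 upward, so starts and position in the cluster cannot be separated. In Pcdhb, 7 of 21 bins with a start were listed with the pair, and only 1 bin held no start. The median spacing between neighbouring Pcdhg starts was 5.37 kb, so bins of 10 kb cannot assign most contacts to 1 promoter. Of the Pcdhg genes, Pcdhga6, Pcdhga12 and Pcdhgc3 shared no bin at their start with another member.

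Among Pcdhg genes, the number of interactions at the start varied from 1 to 8. Pcdhgb7 had 8 and Pcdhgb6 had 6, in windows that reach into a pair of bins, and their interactions led to 4 distinct partner bins each. Pcdhga12, the last A-type gene, and Pcdhgc3 each had 6 from a single bin, with 6 distinct partners. The bin of Pcdhga12 was listed with that of Pcdhgc3, with the bin of the Pcdhgc4 and Pcdhgc5 starts, with the bin at the shared Pcdhg end and with 3 bins of Diaph1. Pcdhgc3 was listed with Pcdhga12, the shared end and 4 Diaph1 bins, the farthest 80 kb away. Pcdhgc4 and Pcdhgc5, whose starts share chr18:37810001-37820000, had 1 interaction, with Pcdhga12 at 50 kb, and none with Diaph1. The C-type genes of Pcdhg were thus unevenly listed.

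A shorter set of contacts joined the later A- and B-type genes to the shared end. The bins from chr18:37740001 to 37770000, which hold the starts from Pcdhgb6 to Pcdhga12, were each listed with the bin of the shared Pcdhg end, chr18:37840001-37850000, and with the next bin, chr18:37850001-37860000. These 6 interactions were adjacent and formed 1 contact once neighbouring calls were merged. The bin of the shared end also holds the low-coordinate end of Diaph1, so its 4 interactions cannot be assigned to one gene. A partly different set of 6 interactions had both anchors in Pcdhg, and merging gave 3 contacts for it. These were 3.51% of the 171 pairs possible at 20 kb or more (exact 95% interval 1.30 to 7.48%). The share was 1.21% of all autosomal pairs at the same distances and 0.42% of those from 20 to 1000 kb. Of this set, 4 used the bin of the shared end. By bin midpoint only 2 interactions lay within Pcdhg, so the share depends on that bin.

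In Pcdhb the listed contacts were confined to the upper genes. The 11 genes from Pcdhb1 to Pcdhb11 had 0 interactions, and each of the 11 from Pcdhb12 to Pcdhb22 had at least 1, all with the Diaph1 pair and all at 370 to 450 kb. At the low-coordinate end, Pcdhb16 and Pcdhb18 had 3 each, Pcdhb13, Pcdhb14 and Pcdhb17 had 2 each and the other 6 genes had 1 each. Over the whole gene with its window, Pcdhb12 and Pcdhb17 also had 3, and Pcdhb19 and Pcdhb20 had 2. At their low-coordinate ends, 5 of the 11 genes were listed with both bins of the pair, 2 with the lower bin alone and 4 with the upper bin alone, of which neighbours share bins. The lower Diaph1 bin was listed with 4 of 22 Pcdhb bins (18.2%, exact 95% interval 5.19 to 40.3%) and the upper with 5 of 22 (22.7%, 7.82 to 45.4%), against 0.234% and 0.222% of autosomal pairs at the same distances. As the pair was picked for its many interactions, these shares are descriptive too.

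The lower Pcdhb genes lay in a stretch with no anchor at all. From chr18:37220001 to 37430000, 21 consecutive bins with the starts of Pcdhb1 to Pcdhb11 took part in no listed interaction with any partner. Stretches of 21 or more such bins held 47.7% of the bins between the outermost anchors of each autosome. No interaction joined a pair of Pcdhb bins (0 of 213 possible pairs, which allows a share of up to 1.41%), against 1.21% of autosomal pairs at the same distances, which lies below that limit. With every bin of the Pcdhb span counted, the limit was 0.923% (0 of 325 pairs, exact 95% upper limit 1.13%), and the 1.21% lay above it. With chromosome 18 alone as background, the share at the distances of the 213 pairs was 1.01%. That value lies above 0.923% but below the exact limit of 1.13%. At the unknown depth of the list, these genes were without a detected contact rather than shown to have none. Neighbouring protocadherin genes are similar in sequence, and the share of the region to which reads can be mapped uniquely was not measured.

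In Pcdha, the listed contacts began at the C-type gene Pcdhac2. Its start bin, chr18:37140001-37150000, had 3 interactions, all at higher coordinates. The first, at 30 kb, led to chr18:37170001-37180000, between the variable exon of Pcdhac2 and the shared end of the cluster. The second, at 40 kb, led to chr18:37180001-37190000, which holds the shared end. The third, at 70 kb, led to chr18:37210001-37220000, above the cluster and below Pcdhb1, where the annotation has only Gm37013, Gm38666 and Gm38667, readthrough transcripts that start in Pcdha, end with Pcdhg and are not among the members. Pcdhac1, the other C-type gene of the cluster, had 0 interactions at its start.

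The 12 genes Pcdha1 to Pcdha12 also had 0 at their starts. With Pcdhac1, these 13 starts lay in a stretch of 33 consecutive bins without an anchor, chr18:36810001-37140000. Such stretches were common in the list: those of 33 or more bins held 41.1% of the bins between the outermost anchors of each autosome. Within Pcdha, 2 of 351 possible pairs were listed (0.570%, exact 95% interval 0.0691 to 2.04%), against 1.20% of autosomal pairs at the same distances, a value inside the interval.

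No interaction joined different clusters. Between Pcdhb and Pcdhg 0 of 440 possible pairs were listed, which allows a share of up to 0.682%, against 0.499% of autosomal pairs at the same distances. Between Pcdha and Pcdhb the count was 0 of 616, allowing up to 0.487%, against 0.532%. Between Pcdha and Pcdhg it was 0 of 560, allowing up to 0.536%, against 0.0888%. The exact 95% intervals reached 0.835%, 0.597% and 0.657% in the order given and included each of these shares, that between Pcdha and Pcdhb too, which lay above the limit of 3 counts. The bins of Pcdha lay within the 1000 kb that the longest listed interaction spans from the Diaph1 pair, yet neither bin of the pair was listed with any of the 28 Pcdha bins, where the share of autosomal pairs at the same distances was 0.0571% for the lower bin and 0.0552% for the upper. So few pairs were listed at these distances in the whole list that the absence of Pcdha contacts with Diaph1 was not distinguishable from an ordinary share.

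**Figure D4:**
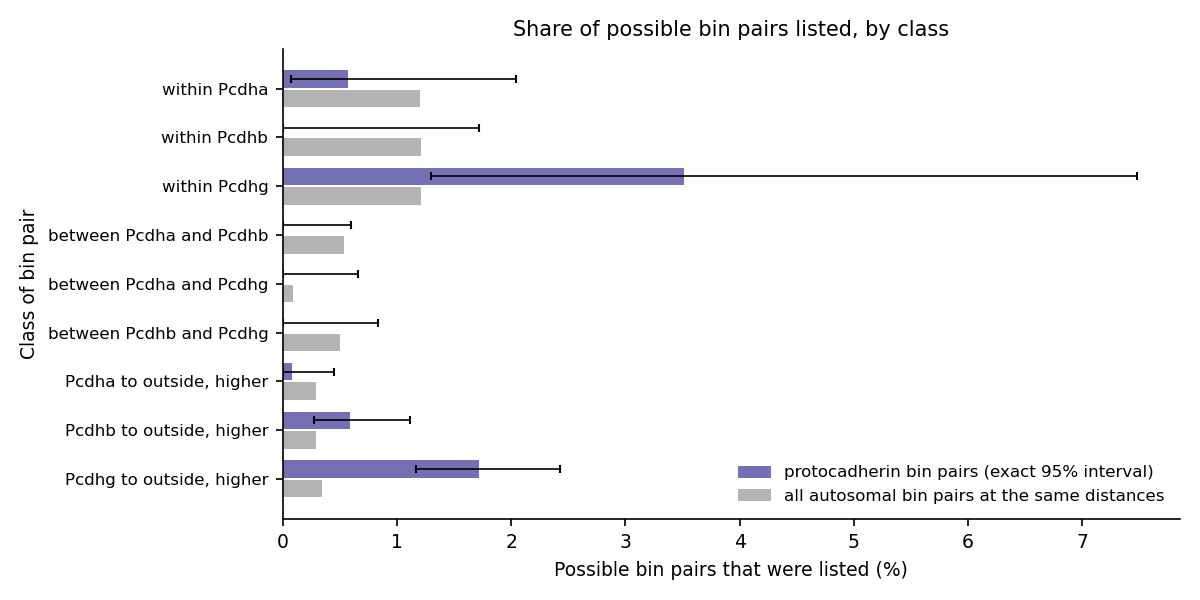
Share of possible bin pairs that were listed (x axis, percent) for each class of protocadherin pair within, between or from the clusters to outside (colored bars, with exact 95% intervals), above the share of all autosomal bin pairs at the same distances (grey bars). Pcdhg pairs stand at 3.51% within the cluster and 1.71% to higher coordinates outside, against 1.21% and 0.345%. The 3 classes between clusters are at 0. Neighbouring bin pairs are not independent, so the intervals are too narrow.

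Only toward higher coordinates did the clusters have outside partners. For Pcdhg, 31 of 1809 possible pairs with bins above and outside the clusters were listed (1.71%, exact 95% interval 1.17 to 2.42%), against 0.345%. Of these 31, 26 were with the Diaph1 pair, which was picked for its many interactions, and merging adjacent calls left 3 contacts. Neighbouring bin pairs are not independent, so the intervals given for these shares are too narrow. For Pcdhb, 9 of 1525 were listed (0.590%, 0.270 to 1.12%), against 0.286%, a value inside the interval. In the other direction 0 of 809 Pcdhg pairs and 0 of 1349 Pcdhb pairs with outside bins were listed, allowing up to 0.371% and 0.222% by 3 counts, against 0.438% and 0.243%, which the exact 95% intervals, up to 0.455% and 0.273%, included. For Pcdha, 0 of 2421 pairs with lower outside bins were listed, allowing up to 0.124% (exact 95% upper limit 0.152%), against 0.306%. With higher outside bins 1 of 1245 was listed (0.0803%, 0.00203 to 0.447%), against 0.293%, a value inside the interval. Only 3 of the 28 Pcdha bins were anchors at all, so these pairs are far from independent.

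Interaction distances differed by cluster. Their median was 150 kb over the 49 interactions (interquartile range 90 to 210 kb), against 180 kb over the whole list (100 to 300 kb). The median was 130 kb for Pcdhg, with a range of 40 to 230 kb. For Pcdhb it was 400 kb, with a range of 370 to 450 kb, and for Pcdha 40 kb, with a range of 30 to 70 kb. Many calls were adjacent. When interactions within 1 bin of each other at both anchors were merged, the 49 formed 8 contacts. The row from Taf7 and the A- and B-type Pcdhg genes to the Diaph1 pair was 1 contact of 26 interactions, the upper Pcdhb genes gave 2 contacts of 3 and 6 interactions, and Pcdhac2 gave 2.

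The Diaph1 pair was among the better connected anchors of the list. Of the 56427 anchors, 726 (1.29%) had at least as many interactions as the lower bin and 851 (1.51%) at least as many as the upper. Among those 851, 409 (48.1%) had all partners on 1 side, as both bins of the pair did. Diaph1 itself had 4 interactions at its low-coordinate end, in the bin shared with the Pcdhg end, and 6 at both ends together. Counting every bin of the gene, Diaph1 had 50. No interaction joined the clusters, or the gaps between them, to a bin above the Diaph1 pair, and none joined them to a bin below Pcdha. Hdac3, the histone deacetylase gene above Diaph1, had 5 interactions at its ends and none with a member. The delta-type protocadherin gene Pcdh1, 344 kb above Pcdhg, had 19 interactions at its ends, none with a member.

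The protocadherins were then set beside other families of neighbouring paralogs, with no test. Pcdhg had 1.85 interactions per bin, Pcdhb 0.409 and Pcdha 0.107. The Hoxa, Hoxb and Hoxd clusters of patterning genes had 3.08, 3 and 2.91, and Hoxc had 0.692. The keratin genes, of epithelial intermediate filaments, had 1.65 on chromosome 15 and 0.372 on chromosome 11, and 0 of the 423 bins of 286 olfactory receptor genes on chromosome 2 were an anchor (exact 95% upper limit 0.868%). Once adjacent calls were merged, Pcdhg had 4 contacts, and Pcdhb and Pcdha had 2 each. Hoxa, with as many interactions as Pcdhg, had 11 contacts, Hoxb 13, Hoxd 9 and Hoxc 1. The keratins had 16 on chromosome 15 and 11 on chromosome 11. The share of anchor bins was 80.0% in Pcdhg, 31.8% in Pcdhb and 10.7% in Pcdha. It was 83.3% for Hoxa, 61.5% for Hoxb, 54.5% for Hoxd and 30.8% for Hoxc. For the keratins it was 39.6% on chromosome 15 and 9.30% on chromosome 11. Pcdhg had 4 outside partner bins, as did Hoxc, and Pcdhb had 2. Hoxa had 17, Hoxb 15 and Hoxd 21, and the keratins had 12 on chromosome 11 and 19 on chromosome 15. The pair of outside bins with the most contacts took part in 70.3% of the interactions of Pcdhg and in 100% of those of Pcdhb. The corresponding share was 77.8% for Hoxc, with 9 interactions, and between 18.8 and 35.1% for the other Hox clusters and for both keratin families.

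**Figure D5:**
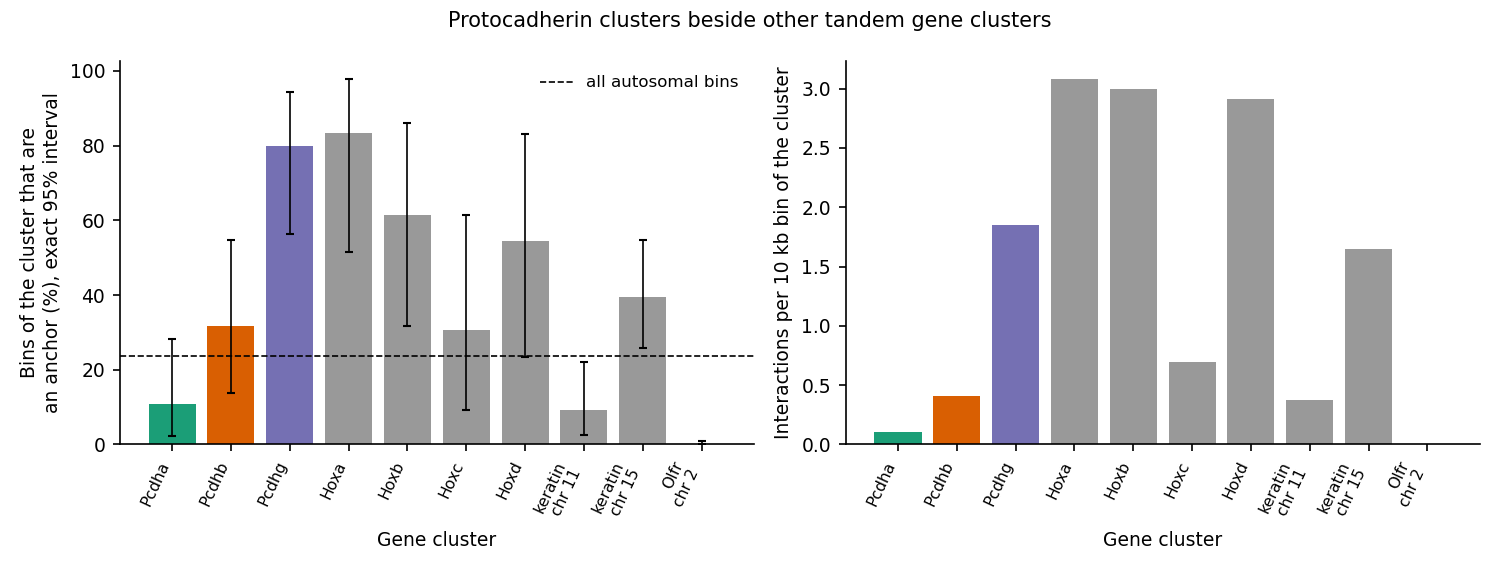
Share of 10 kb bins that were an anchor (left panel, percent, with exact 95% intervals; the dashed line is the 23.6% of all autosomal bins) and interactions per bin (right panel) for the Pcdha, Pcdhb and Pcdhg clusters (colored) and 7 other tandem gene clusters (grey). Pcdhg stands near Hoxa in anchor bins at 80.0% against 83.3%, but below it in interactions per bin at 1.85 against 3.08, and Olfr genes are at 0 in both panels.

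Other genes of the protocadherin family and of its known regulation were unevenly connected. Of 13 non-clustered protocadherins and Celsr genes, which encode atypical cadherins of planar cell polarity, 9 had an interaction at a gene end, beside 65.7% of all coding genes, with a median of 2, equal to that of all coding genes. Pcdh7 had 24, Pcdh1 19 and Celsr3 9, whereas Pcdh10, Pcdh15, Pcdh17 and Pcdh20 had 0. Of 12 autosomal genes for factors known to act at these clusters, 9 had an interaction, with a median of 3. Smc3, a cohesin subunit, had 15, and Trim28, a co-repressor, had 12. Ctcf, whose zinc-finger protein binds protocadherin promoters and enhancers, had 6, as did the cohesin loader gene Nipbl and the histone methyltransferase gene Setdb1. Rad21, Wapl and Dnmt3b had 0. Smchd1, whose product is known to repress clustered protocadherins, had 1.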

How the data were processed

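The deposited file is 1 list of anchor pairs on the 19 autosomes, with coordinates only. BWA and mm10 are named in the submitters' processing notes. How interactions were called, at which threshold and whether replicates were pooled is not given in the sources used here. Per the file header, the list has no column for a library, a count or a score, so the planned comparison with neural stem cells and the stricter threshold were not run. Members, lists and comparison families were chosen with earlier results of these data known.

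Anchor bins were intersected with RefSeq genes of GRCm38.p6 (no strand given), extended by 2.5 kb, in Python 3.11.15 with pandas 2.3.3. Possible pairs were all pairs of bins at 20 to 1000 kb between the outermost anchors of each autosome; the share at the same distances weights the list-wide share at each distance by the class's pairs. Exact (Clopper-Pearson) 95% intervals used scipy 1.17.1, and the limit for a count of 0 is 3 counts. Counting was tested on simulated interactions. Named were the most connected genes per cluster, the C-type genes, the most connected anchor bins and fixed lists, of which not every gene is described; 1 gene of these lists was not analysed here. The Diaph1 bin pair, Taf7, Hdac3 and Slc25a2 were singled out after their values were seen. Alternatives were windows of 0 and 5 kb, both or only low-coordinate ends, bin midpoints, merging within 1 bin, whole cluster spans, pairs up to 500 kb and chromosome 18 as background.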

Additional observations from a re-analysis of the deposited data

How the results depend on the processing

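No paired analysis was possible because interactions are listed without a value for each library. For the same reason tumor was not compared with neural stem cells, a stricter threshold was not run, and depth is unknown. Merging adjacent calls reduced the 49 interactions to 8 contacts (within Pcdha 1, within Pcdhg 3, Pcdhb to outside 2, Pcdhg to outside 3, where a contact can count in more than 1 class), the median distance to 82.5 kb and the most at 1 bin to 4. With both gene ends only, 1 interaction lay within Pcdha and 2 ran from Pcdha to outside. With the low-coordinate end only, 0 lay within Pcdha, 2 within Pcdhg and 3 ran from Pcdha to outside, and 1 Pcdha gene had an interaction. By bin midpoint, 2 lay within Pcdhg. The other alternatives kept each count within 1.5 times, and 0 interactions between clusters were found under the 7 alternatives of window, gene end, midpoint, merging and cluster span. Counting every bin of Pcdhb lowered the limit for pairs within it to 0.923%, against 1.41%. A window of 5 kb gave 12 Pcdhb genes with an interaction instead of 11.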

Other observations

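Contacts around the clusters were unevenly spread along the chromosome. No listed interaction had 1 anchor below and 1 above the 3 clusters. The clusters together span nearly the 1000 kb of the longest listed interaction, so few pairs could qualify and this absence carries little information. No interaction spanned the bin next to the Diaph1 pair, chr18:37890001-37900000, which was itself an anchor of 1 interaction. How often bins go unspanned over the whole list was not computed. At most 3 interactions passed over any bin of Pcdha and at most 9 over any bin of Pcdhb, against 46 over a bin of Pcdhg. A stretch without an anchor, of 12 bins from chr18:37520001 to 37640000, lay between Pcdhb22 and Taf7 and was crossed by the Pcdhb contacts only. Stretches of 12 or more such bins held 56.3% of the bins between the outermost anchors of each autosome. Below the clusters, Zmat2 was the nearest coding gene with an interaction at an end (2), followed by Hars2 (4) and Hars (5), the genes of histidyl-tRNA synthetases. Gm37013, Gm38666 and Gm38667, which run from Pcdha to the Pcdhg end, had 0 interactions at their low-coordinate ends and 51 over their spans.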
